A study of Homo sapiens with 8 samples.

Results

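Kinesins are motor proteins that use ATP to walk along microtubules or to take them apart at their ends. The kinesin superfamily was examined here through the genes named KIF plus a number, with or without a letter. The annotation held 40 such genes. At least 1 named probe on the array was found for 37 of them, 52 probes in all, and 36 genes had a probe bright enough to be tested, out of 28850 genes tested. They were split into 13 mitotic kinesins, which build the spindle, move chromosomes and finish cell division, 13 transport kinesins, which carry vesicles, organelles and ciliary cargo, and 14 kinesins with other, mixed or less settled roles. Of these, 10, 13 and 13 were tested.

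LNCaP is an androgen-responsive line from a lymph node metastasis of human prostate cancer. The cells received 30 nM of a small interfering RNA against the transcription factor gene GATA2, or the same dose of a scrambled control, by lipid transfection, and RNA was taken at 72 h. Each group had 4 one-colour Agilent arrays, referred to as siGATA2 and siControl after their labels. The design comprised 1 cell line, a transient knock-down with a single siRNA product and no rescue. The labels number the replicates without saying whether each came from its own culture, so p-values rest on the spread between these arrays.

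Mitotic kinesins are made in bulk late in the cell cycle and fall to low levels in cells that stop dividing, whereas transport kinesins work throughout interphase and are especially abundant in nerve cells. The dimers of the KIF5 and KIF3 families bind cargo through light chains and accessory subunits, and the mitotic motors work with partner proteins at the spindle midzone and on chromosomes. The comparison of the classes asks whether silencing of GATA2 is accompanied by different changes in motors for division and motors for transport.

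The mRNA signal of GATA2 itself was not lower on the arrays labelled siGATA2. It was at 12.61, 12.54, 11.57 and 11.40 on the log2 scale on siGATA2 arrays 1 to 4, so that arrays 1 and 2 lay above arrays 3 and 4. On the siControl arrays it ranged from 11.10 to 11.74, and the groups overlapped (log2 fold change 0.68, standard error 0.312, adjusted p = 0.154). The arrays do not measure GATA2 protein, which the study followed by Western blot (not analysed here), and directions are given by the array labels. Signals were quantile-normalized over the 8 arrays, log2 fold changes are siGATA2 over siControl, adjusted p-values come from limma with Benjamini-Hochberg adjustment over all 28850 genes, and a gene is called lower or higher at an adjusted p under 0.05. Signals of different probes are not on a common scale, so levels are compared only between arrays. The arrays had between 24261 and 37019 probes well above background, with siControl arrays 3 and 1 the lowest, and all 9 markers of LNCaP and luminal prostate cells were well above background on the 8 arrays. In RNA from whole cultures, fewer cells of a kind and less RNA per cell cannot be told apart.

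The mitotic kinesins fell without exception among those tested. All 10 were lower on the siGATA2 arrays, against 14.2% of all genes, and all 10 were lower by at least 2-fold, against 7.13%. In each of the 10 the siGATA2 arrays lay wholly under the siControl arrays, a separation shown by 16.5% of all genes. The median log2 fold change of the class was -1.92, with a range from -2.40 to -1.21, beside a median of 0.088 for all genes. All 10 probes were well above background on the 8 arrays. The class was drawn up with earlier results of these data known. It leaves out KIF2A, which has roles in the spindle and in interphase and was not called.

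**Figure D1:**
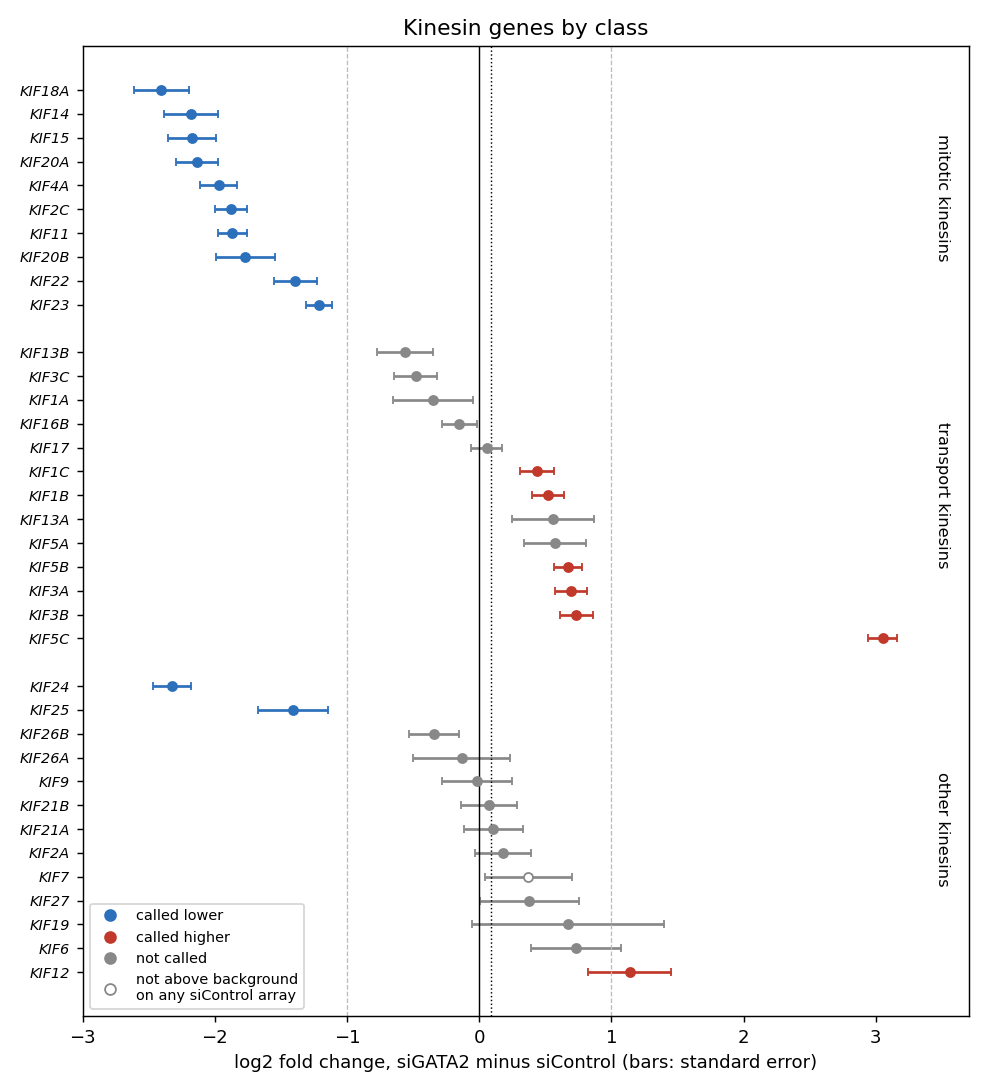
Log2 fold change (siGATA2 minus siControl, horizontal axis) of the 36 kinesin genes tested, by class, with bars of 1 standard error, a dotted line at the median of all genes and dashed lines at a 2-fold change. The 10 mitotic kinesins lie between -2.40 and -1.21, and the 13 transport kinesins between -0.56 and 3.05 (under spike-in scaling the transport median turns from 0.52 to -0.16, and is 0.30 without siControl array 1), with KIF5C far to the right.

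Among the motors that shape the spindle, KIF11 slides antiparallel microtubules apart and so separates the poles. Its log2 signal was 9.28, 9.16, 9.27 and 9.26 on siGATA2 arrays 1 to 4 and 10.88, 11.19, 11.21 and 11.15 on siControl arrays 1 to 4. The arrays of a group were almost level with each other, and a wide gap lay between the groups. KIF11 fell by 1.87 on the log2 scale (standard error 0.109, adjusted p = 2.61e-05), which is a 3.65-fold difference. KIF15, which can hold the poles apart alongside KIF11, stood at 8.27, 7.70, 7.46 and 7.61 on the siGATA2 arrays and at 9.87, 10.06, 9.90 and 9.90 on the siControl arrays. The first siGATA2 array was the highest of its group, still below every siControl array, and KIF15 fell by 2.17 (standard error 0.180, adjusted p = 0.000103).

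KIF18A, which gathers at the plus ends of kinetochore microtubules and damps chromosome movement, had the largest fall of the class. Its values were 5.92, 5.69, 6.32 and 6.27 on the siGATA2 arrays against 7.98, 8.72, 8.53 and 8.59 on the siControl arrays. The groups did not overlap, and siControl array 1 was the lowest of its group. KIF18A fell by 2.40 on the log2 scale (standard error 0.210, adjusted p = 0.000131), a 5.29-fold difference, and 270 of the 28850 genes had a lower log2 fold change. KIF2C, which depolymerizes microtubules to correct faulty kinetochore attachments, was at 11.49, 11.29, 11.12 and 11.19 and at 13.01, 13.12, 13.25 and 13.23. All siGATA2 arrays were clearly lower, and KIF2C fell by 1.88 (standard error 0.119, adjusted p = 3.46e-05).

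The 2 chromokinesins, which sit on chromosome arms and push them toward the spindle equator, both fell. KIF4A, which also works with PRC1 at the spindle midzone, was at 9.55, 9.17, 9.24 and 9.20 on the siGATA2 arrays and at 11.08, 11.14, 11.50 and 11.32 on the siControl arrays. KIF22 was at 11.19, 11.04, 11.10 and 11.08 and at 12.05, 12.57, 12.74 and 12.61. In both genes the highest siGATA2 array stayed under the lowest siControl array, which was siControl array 1. The log2 fold change was -1.97 for KIF4A and -1.39 for KIF22. Intervals of 2 standard errors to either side were -2.25 to -1.69 for KIF4A and -1.71 to -1.07 for KIF22. These intervals come from the limma standard errors of each gene and the difference between the 2 genes was not tested.

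Motors of the midzone and of cytokinesis made up the rest of the class. KIF20A, which brings the chromosomal passenger complex to the midzone, had signals of 9.10, 8.75, 8.90 and 9.002 on the siGATA2 arrays and 10.67, 11.25, 11.13 and 11.23 on the siControl arrays. KIF14, which acts with citron kinase at the midbody, had 8.90, 8.50, 8.37 and 8.46 against 11.27, 10.58, 10.56 and 10.53. The siControl arrays of KIF14 were close together except for array 1, which was higher. KIF20A fell by 2.13 (standard error 0.158, adjusted p = 6.4e-05) and KIF14 fell by 2.18 (standard error 0.205, adjusted p = 0.000183).

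KIF23, the motor of the centralspindlin complex, and KIF20B, a further midzone motor, closed the list. KIF23 was at 10.94, 10.78, 10.70 and 10.75 on the siGATA2 arrays and at 12.09, 11.97, 12.003 and 11.96 on the siControl arrays, and fell by 1.21, the least of the class (standard error 0.0974, adjusted p = 9.14e-05). KIF20B was at 7.22, 6.92, 7.56 and 7.67 against 8.72, 9.16, 9.52 and 9.04, and had the widest error of the class (log2 fold change -1.77, standard error 0.224, adjusted p = 0.000795). Neither gene had overlapping groups. KIF18B and KIF4B had no named probe and are not analysed here. The single probe of KIF2B was too dim to be tested, being above background on no siGATA2 array and on 1 siControl array.

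The falls in mitotic kinesins rested on more than 1 probe where the array carried more. KIF4A, KIF20B, KIF22 and KIF23 each had a second probe, with log2 fold changes of -2.01, -1.99, -1.36 and -1.24 beside -1.97, -1.77, -1.39 and -1.21 for the brighter probe. All of these second probes were called lower when each probe was tested by itself, as were 14.5% of all 35514 probes, and in each the groups were separate. Leaving out any 1 of the 8 arrays kept all 10 mitotic kinesins lower.

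The proximal promoters of the mitotic kinesins were read from RefSeq (assembly GRCh38.p14), which gave the sequence before the transcription start for 33 of the 40 kinesin genes, namely 13 mitotic, 11 transport and 9 other kinesins. Late cell cycle genes are known for a CHR element (cell cycle genes homology region), often placed a short way downstream of CCAAT boxes. The 250 bases before each start were searched on both strands for a CHR (TTTGAA or TTCGAA), for the letters CCAAT of the CCAAT box, for an E2F motif (TTTCCCGC, TTTGGCGC, TTTCGCGC or TTTGCCGC) and for the GATA motif (AGATAA with its variant AGATAG and likewise TGATAA with its variant TGATAG). A CHR match was present in 6 of 13 mitotic kinesins (46.2%), in 1 of 11 transport kinesins (9.09%) and in none of the 9 others, against 17.2% of 27305 genes. The 6 mitotic genes were KIF11, KIF15, KIF18A, KIF22, KIF23 and KIF4A. All tested mitotic kinesins fell with or without a CHR match, so the falls do not set these 6 genes apart. Those that fell without a match were KIF2C, KIF14, KIF20A and KIF20B. The transport kinesin with a match was KIF5B, which was called higher in the main fit. For the 6 mitotic genes, the 120 bases before the start are shown because they hold the CHR close to the start. CHR and CCAAT matches are in capitals (TTCAAA and ATTGG are the same motifs on the other strand). KIF14 and KIF24 are shown beside them as genes with falls of similar size that have CCAAT boxes and no CHR.
KIF11, chr10:92593010-92593129, plus strand: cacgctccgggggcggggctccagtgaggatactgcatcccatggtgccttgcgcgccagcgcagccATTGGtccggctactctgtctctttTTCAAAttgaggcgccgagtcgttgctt
KIF15, chr3:44761674-44761793, plus strand: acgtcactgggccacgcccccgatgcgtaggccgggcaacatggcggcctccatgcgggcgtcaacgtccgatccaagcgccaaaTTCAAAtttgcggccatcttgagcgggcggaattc
KIF18A, chr11:28108157-28108276, minus strand: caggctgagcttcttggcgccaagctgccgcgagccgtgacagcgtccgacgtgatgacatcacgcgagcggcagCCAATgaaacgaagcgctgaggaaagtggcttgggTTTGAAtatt
KIF22, chr16:29790631-29790750, plus strand: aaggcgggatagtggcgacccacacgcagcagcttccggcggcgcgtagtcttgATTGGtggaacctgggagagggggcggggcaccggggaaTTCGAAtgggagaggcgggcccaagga
KIF23, chr15:69414229-69414348, plus strand: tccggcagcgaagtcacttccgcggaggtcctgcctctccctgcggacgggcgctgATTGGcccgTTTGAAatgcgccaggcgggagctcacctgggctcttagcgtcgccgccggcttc
KIF4A, chrX:70289984-70290103, plus strand: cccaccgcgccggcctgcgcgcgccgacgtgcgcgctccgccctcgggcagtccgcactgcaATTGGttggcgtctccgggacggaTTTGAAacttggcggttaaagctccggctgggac
KIF14, chr1:200620752-200620871, minus strand: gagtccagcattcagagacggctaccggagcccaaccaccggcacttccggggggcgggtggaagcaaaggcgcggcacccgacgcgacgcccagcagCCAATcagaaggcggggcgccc
KIF24, chr9:34329269-34329388, minus strand: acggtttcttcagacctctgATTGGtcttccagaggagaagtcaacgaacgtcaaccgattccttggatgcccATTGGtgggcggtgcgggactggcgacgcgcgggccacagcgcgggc

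Counted from the starts of the windows shown, the first base of the CHR in the 6 promoters lay between 10 bases (KIF18A) and 55 bases (KIF23) upstream, and in all of them except KIF15 a CCAAT box lay upstream of it. KIF22 has a second listed start, from which the same letters lie 244 bases upstream. A CCAAT box was found in 10 of 13 mitotic kinesins (76.9%), 4 of 11 transport kinesins (36.4%) and 3 of 9 others (33.3%), beside 37.0% of all genes. An E2F match was present in 1 mitotic kinesin, KIF15, directly next to its CHR, in no transport kinesin and in 1 other, KIF25, beside 3.4% of all genes. A GATA match was present in 1 of 13 mitotic kinesins (KIF20A), 2 of 11 transport kinesins (KIF1A and KIF5C) and 3 of 9 others (KIF6, KIF9 and KIF12), beside 26.2% of all genes. These are matches of letters in a short window, with no measurement of binding, and promoters of the classes were not compared by a test.

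The transport kinesins took a different course. None of the 13 was called lower, 6 were called higher against 12.3% of all genes, and 7 passed in neither direction. The class had a median log2 fold change of 0.52 and a range from -0.56 to 3.05, but this direction flips when arrays are scaled to their spike-in controls, where the median was -0.16 and 1 gene was called higher. The flip rests on siControl array 1, without which spike-in scaling, an alternative chosen after seeing the data, gave a median of 0.30 with 1 gene called higher and 1 lower. Spike-in scaling also moved the median of all genes, from 0.088 to -0.43, and siControl array 1 had a mean spike-in signal of 11.13 on the log2 scale against 13.45 to 13.83 on the other 7 arrays. Relative to the median of all genes the transport median was 0.43 under quantile normalization, 0.27 under scaling to the 75th percentile and 0.27 under spike-in scaling, and the mitotic median was -2.01, -2.12 and -2.12. All 10 mitotic kinesins lay below the median of all genes under each of these scalings, as did 5, 4 and 4 of the 13 transport kinesins.

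**Figure D2:**
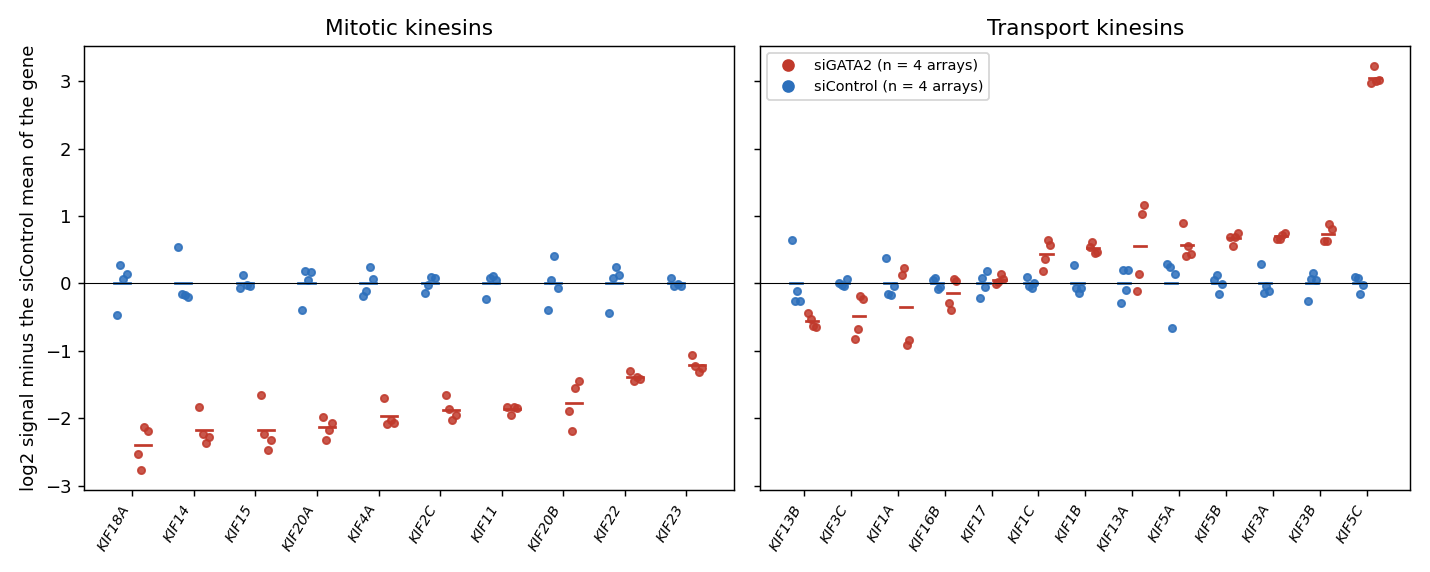
Log2 signal of each array minus the siControl mean of the same gene (vertical axis) for the mitotic kinesins (left) and the transport kinesins (right), 4 arrays per group, with a short line at each group mean. The siGATA2 arrays lie below all siControl arrays in each of the 10 mitotic kinesins and above them in 7 of the 13 transport kinesins, in quantile-normalized signals. Of all genes, 16.5% have them all below and 16.2% all above. Under spike-in scaling with all 8 arrays KIF1B, KIF1C and KIF5B turn below 0, while KIF5C stays at 2.44.

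KIF5C had by far the largest rise of the family. It encodes 1 of the 3 heavy chains of conventional kinesin and is found mainly in nerve cells. Its log2 signal was 12.90, 13.16, 12.94 and 12.94 on the siGATA2 arrays and 10.03, 10.01, 9.78 and 9.92 on the siControl arrays. The values within each group were tight, the groups were far apart, and the probe was well above background on all 8 arrays. KIF5C rose by 3.05 on the log2 scale (standard error 0.109, adjusted p = 1.17e-05), an 8.28-fold difference, and 55 of the 28850 genes had a larger log2 fold change. It was the only transport kinesin called higher by at least 2-fold, where 4.52% of all genes were. Across every alternative processing tried, its log2 fold change lay between 2.44 and 3.08 and stayed called.

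The other 2 heavy chains of conventional kinesin had smaller values. KIF5B, the form made in most tissues, was at 14.90, 14.76, 14.90 and 14.96 on the siGATA2 arrays and at 14.26, 14.34, 14.05 and 14.20 on the siControl arrays. Its groups were separate, as were those of 16.2% of all genes with siGATA2 the higher, and the gene was called higher at 0.67 (standard error 0.104, adjusted p = 0.00223). A second KIF5B probe gave 0.68. Under spike-in scaling the value was -0.034, and in that scaling without siControl array 1 it was 0.35 and not called (adjusted p = 0.274). KIF5A, a neuronal form, was dim, with signals of 4.41 to 4.91 on the siGATA2 arrays and 3.34 to 4.30 on the siControl arrays, well above background on 4 and 2 arrays, and its log2 fold change of 0.57 was not called (adjusted p = 0.115).

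Conventional kinesin carries cargo with the help of light chains, and these went both ways. KLC1 rose by 1.06 (standard error 0.200, adjusted p = 0.00594) and KLC3 and KLC4 were each called higher at 0.58. KLC2 fell by 0.76 (standard error 0.200, adjusted p = 0.0253). Thus of the 6 light chains and kinesin-binding proteins examined, 4 were called higher and 2 lower, beside 12.3% and 14.2% of all genes. The other member called lower was KIFBP, which binds motor domains and keeps a subset of kinesins off microtubules, at -0.89 (standard error 0.113, adjusted p = 0.000836). Under spike-in scaling none of the 6 was called and their median went from 0.58 to 0.091 (0.49 without siControl array 1, with 2 called lower).

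Heterotrimeric kinesin-2, which drives anterograde transport in cilia and moves vesicles elsewhere, consists of KIF3A, KIF3B and the accessory subunit KIFAP3. KIF3A was at 12.87, 12.87, 12.94 and 12.96 on the siGATA2 arrays and at 12.51, 12.07, 12.18 and 12.11 on the siControl arrays. KIF3B was at 13.52, 13.52, 13.76 and 13.69 and at 12.63, 12.95, 13.03 and 12.93. All 3 subunits were called higher with separate groups, KIF3A at 0.70 (standard error 0.121, adjusted p = 0.00394), KIF3B at 0.73 (standard error 0.126, adjusted p = 0.0036) and KIFAP3 at 0.97 (standard error 0.123, adjusted p = 0.000815). Under spike-in scaling KIF3A and KIF3B kept a positive sign at 0.059 and 0.053 but were no longer called, as was KIFAP3 at 0.32.

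The alternative partner of KIF3A, KIF3C, had a negative value and was not called. Its signals were 9.06, 9.21, 9.70 and 9.66 on the siGATA2 arrays and 9.89, 9.86, 9.85 and 9.95 on the siControl arrays. The groups did not overlap, but the siGATA2 arrays were split, with arrays 1 and 2 lower than arrays 3 and 4, and the log2 fold change of -0.48 had an adjusted p of 0.067. Without siGATA2 array 3 it was called lower (-0.58, adjusted p = 0.0446), and a second, dimmer probe of the gene gave 0.14 with overlapping groups. KIF17, the homodimeric kinesin-2, had overlapping groups, at 6.62 to 6.77 on the siGATA2 arrays and 6.41 to 6.82 on the siControl arrays. Its log2 fold change was 0.056 (adjusted p = 0.75), and 2 standard errors to either side gave -0.18 to 0.29.

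The kinesin-3 motors KIF1A, KIF1B and KIF1C differed among themselves. KIF1C, which carries vesicles between the Golgi and the cell periphery, was at 16.14, 16.32, 16.61 and 16.52 on the siGATA2 arrays against 16.05, 15.92, 15.90 and 15.96, a small separation. It was called higher at 0.44 (standard error 0.127, adjusted p = 0.0374), but this call was lost in 6 of the 8 fits that left out 1 array, with scaling to the 75th percentile (0.24) and under spike-in scaling, where the sign turned (-0.36, or 0.063 without siControl array 1). KIF1A, a carrier of synaptic vesicle precursors, was at 14.50, 14.59, 13.45 and 13.53 on the siGATA2 arrays and at 14.74, 14.21, 14.20 and 14.32 on the siControl arrays. Arrays 1 and 2 labelled siGATA2 lay within the siControl range and arrays 3 and 4 lay below it, and the log2 fold change of -0.35 was not called (standard error 0.300, adjusted p = 0.429).

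KIF1B, which moves mitochondria and vesicles in its different splice forms, was the gene whose probes disagreed. The brightest probe, matched to 1 RefSeq transcript, read 13.42, 13.49, 13.33 and 13.35 on the siGATA2 arrays and 13.15, 12.81, 12.74 and 12.80 on the siControl arrays, separate and called higher at 0.52 (standard error 0.120, adjusted p = 0.0143). The 3 other probes, all matched to another KIF1B transcript, had log2 fold changes of -0.59, -0.27 and -0.52. Tested probe by probe, the first of these was called lower (adjusted p = 0.043 over all probes) and the brightest probe was called higher (adjusted p = 0.0149), beside 14.5% and 12.5% of all probes. The mean over the 4 probes was -0.21, so the call counted above rests on 1 probe and no direction is given for KIF1B as a gene, and under spike-in scaling the brightest probe itself was at -0.16 (0.30 without siControl array 1).

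**Figure D3:**
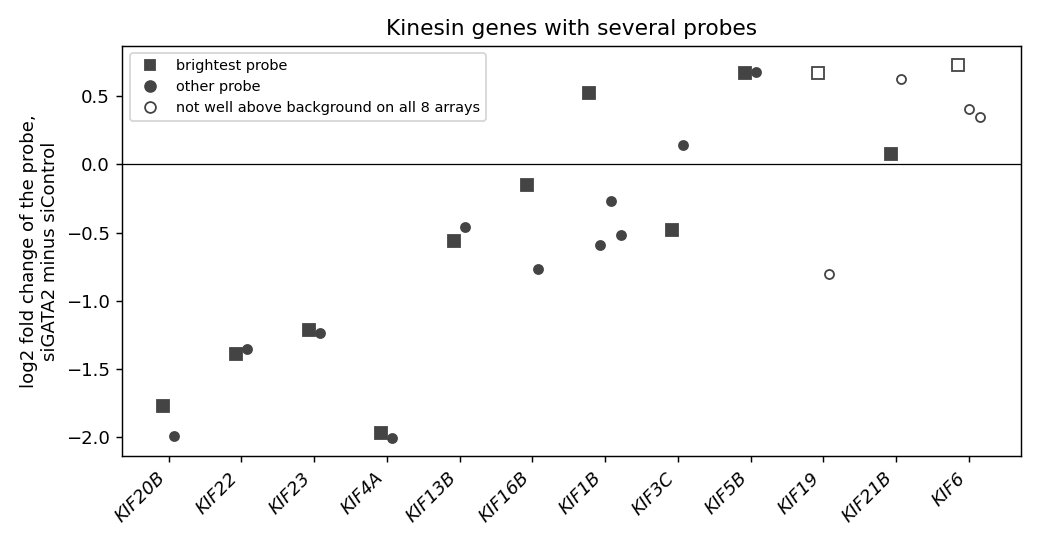
Log2 fold change (vertical axis) of every measured probe of the 12 kinesin genes with several probes, the brightest probe as a square, others as circles, and open symbols for probes that did not clear the background on all 8 arrays. Probes of KIF4A, KIF20B, KIF22, KIF23 and KIF5B lie close together, while those of KIF1B run from -0.59 to 0.52 and those of KIF3C and KIF19 lie on either side of 0.

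Endosomal and membrane carriers of the class were not called. KIF13B, a carrier of membrane receptors, was at 10.84, 10.74, 10.64 and 10.63 on the siGATA2 arrays and at 11.92, 11.01, 11.16 and 11.005 on the siControl arrays. The groups were separate, with siControl array 1 standing above the other 3, and the difference was -0.56 on the log2 scale (standard error 0.211, adjusted p = 0.0913). Without that array the difference was smaller and called lower (-0.35, adjusted p = 0.0416). KIF13A, which moves recycling endosomes, was at 6.19 and 6.43 on siGATA2 arrays 1 and 2 and at 7.33 and 7.46 on arrays 3 and 4, against 6.01 to 6.49 on the siControl arrays (log2 fold change 0.56, adjusted p = 0.23). KIF16B, which moves early endosomes, was at 8.50 to 8.96 and 8.81 to 8.98 (log2 fold change -0.15, adjusted p = 0.454), and its second probe gave -0.77, also with overlapping groups. KIF13B and KIF3C were the only 2 transport kinesins whose siGATA2 arrays all lay under the siControl arrays, beside 16.5% of all genes. In 7 of the 13 the siGATA2 arrays all lay above, beside 16.2% of all genes.

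Set side by side on each array, the 2 classes parted clearly. The mean log2 signal of the 10 mitotic kinesins was 9.19, 8.90, 9.004 and 9.05 on siGATA2 arrays 1 to 4 and 10.76, 10.98, 11.03 and 10.96 on siControl arrays 1 to 4. That of the 13 transport kinesins was 11.11, 11.13, 11.22 and 11.21 and then 10.83, 10.74, 10.60 and 10.73. No array of a group crossed into the range of the other for either class. The transport means include KIF5C, whose log2 fold change was 3.05, and were not taken without it. The mitotic mean minus the transport mean on the same array, to which adding a constant to an array makes no difference, was -2.13 ± 0.141 (SD, n = 4) on the siGATA2 arrays and 0.206 ± 0.209 (SD, n = 4) on the siControl arrays. As different probes are averaged, only the shift of this difference between groups has a meaning, and members of a class are not replicates, so no p-value is given for it. The medians of the 2 classes differed by -2.44 on the log2 scale, and by -2.09 after normexp background correction.

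**Figure D4:**
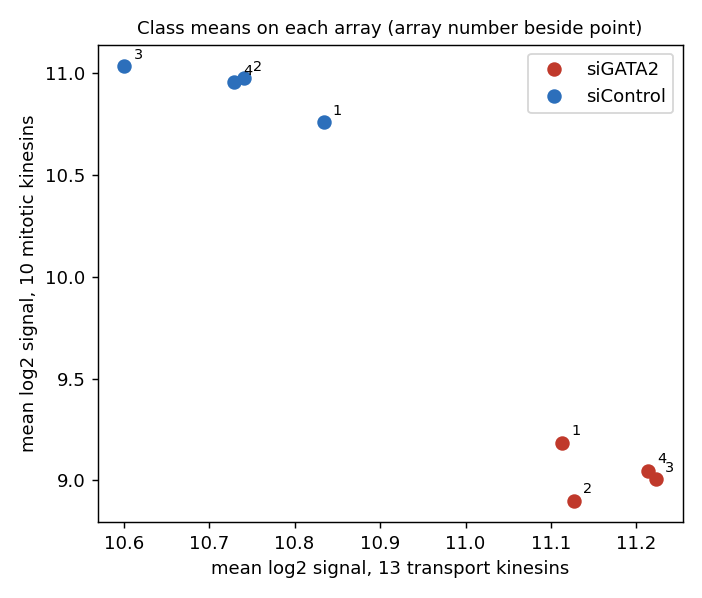
Mean log2 signal of the 13 transport kinesins (horizontal axis) and of the 10 mitotic kinesins (vertical axis) on each of the 8 arrays, quantile-normalized, with the array number beside each point. The siGATA2 arrays lie at lower right, with mitotic means of 8.90 to 9.19, and the siControl arrays at upper left, with 10.76 to 11.03, and the transport direction flips under spike-in scaling with all 8 arrays.

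Among the 13 other kinesins tested, 2 were called lower and 1 higher, beside 14.2% and 12.3% of all genes, and 10 were not called (median log2 fold change 0.11, range -2.32 to 1.14). KIF24, a centriolar motor of the microtubule-depolymerizing type that holds back the growth of cilia, was at 7.69, 7.28, 7.17 and 7.18 on the siGATA2 arrays and at 9.55, 9.73, 9.75 and 9.58 on the siControl arrays. It fell by 2.32 (standard error 0.143, adjusted p = 3e-05), a 5.003-fold difference and within the range of the mitotic kinesins. KIF25 was at 5.29, 5.11, 4.70 and 5.03 against 5.82, 6.46, 7.10 and 6.38, separate and well above background on all 8 arrays, and fell by 1.41 (standard error 0.267, adjusted p = 0.00598). Both stayed called in every alternative processing tried, with log2 fold changes from -2.83 to -1.85 and from -1.75 to -0.62.

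KIF12, known from epithelia of kidney and liver, was the other kinesin called higher. Its siGATA2 arrays were at 7.70, 7.61, 6.56 and 6.53 and its siControl arrays at 5.58, 6.05, 6.06 and 6.17, separate but with siGATA2 arrays 1 and 2 above arrays 3 and 4, and well above background on 3 of the 4 siControl arrays. It was called higher at 1.14 (standard error 0.314, adjusted p = 0.031), and the call was lost without siGATA2 array 1 (0.94, adjusted p = 0.0707), without siGATA2 array 2 (0.97, adjusted p = 0.0799), and without any 1 of the 4 siControl arrays (1.01 to 1.20, adjusted p from 0.0566 to 0.0671). KIF2A, a depolymerase with roles in the spindle and in interphase that was put in neither class, was at 11.04, 11.07, 11.67 and 11.64 against 10.74, 11.33, 11.25 and 11.37. Its groups overlapped (log2 fold change 0.18, adjusted p = 0.572), unlike those of its relative KIF2C. The remaining uncalled genes were KIF21A and KIF21B, which limit microtubule growth, at 0.11 and 0.074, KIF26A and KIF26B at -0.13 and -0.34, and KIF9, KIF27, KIF19 and KIF6, motors linked to motile cilia, at -0.019, 0.38, 0.67 and 0.73. The probes of KIF6, KIF19, KIF26A and KIF27 were well above background on only 2 of the 4 siControl arrays, and the probe of KIF7, a regulator of hedgehog signalling at the cilium, on none, so no fold change is given for it. The 2 probes of KIF19 had opposite signs, the dimmer one at -0.81 (adjusted p = 0.00649 over all probes).

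In 8 of the 36 kinesins (22.2%), siGATA2 arrays 1 and 2 both lay at least 0.5 log2 units above, or both below, each of arrays 3 and 4. Such a gap was present in 27.6% of all genes. The 8 were KIF12, KIF1A, KIF13A, KIF7, KIF21A, KIF9, KIF21B and KIF2A, and none was a mitotic kinesin. The array titles carry the letters A and B for the first pair and E and F for the second, with no account of what the letters mean. Titles of siControl arrays 1 to 4 carry B, D, F and G, so that B and F occur in both groups. A block for the letters A and B therefore groups siControl array 1, and no other siControl array, with siGATA2 arrays 1 and 2. In a fit with a block for whether the letter was A or B, an alternative chosen after seeing the data, KIF1A (-0.55, adjusted p = 0.0101), KIF13B (-0.67, adjusted p = 0.00983) and KIF3C (-0.40, adjusted p = 0.0341) were called lower and KIF13A (0.75, adjusted p = 0.00998) and KIF2A (0.33, adjusted p = 0.00363) were called higher, and all 10 mitotic kinesins stayed lower.

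Partners of the mitotic motors and other proliferation genes moved in the same direction as these motors. Of 17 partners, 16 were called lower, 15 of them by at least 2-fold, beside 14.2% and 7.13% of all genes, with a median log2 fold change of -2.05. The largest falls were those of KIFC1, a minus-end kinesin that clusters spindle poles, at -2.42, the passenger complex subunit BIRC5 at -2.40, and the abscission scaffold CEP55 at -2.35. The exception was MAPRE1, a plus-end binding protein used throughout the cell cycle, at -0.18 with overlapping groups. CENPE, the kinetochore motor that lacks a KIF number, fell by 2.39, and of the 5 kinesins without such a number KIFC2, KIFC3 and STARD9 were not called. All 7 proliferation markers were lower (14.2% of all genes), with a median of -1.88 and the largest falls in CCNA2 (-2.36), MCM2 (-2.12) and TOP2A (-1.94). The mean of these 7 markers was 10.88 to 11.08 on the siGATA2 arrays and 12.47 to 12.83 on the siControl arrays, and their part in the fall of the mitotic kinesins was not tested.

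Genes that work with the transport motors were mostly not called. Of 17 cargo adaptors, 6 were called higher and 1 lower, beside 12.3% and 14.2% of all genes (median log2 fold change 0.50), led by the JNK scaffold MAPK8IP2 at 1.31 and the KIF1 adaptor MADD at 0.74, with the scaffold DISC1 at -1.35. Of 20 subunits of dynein and dynactin, the machinery that moves cargo the opposite way, 6 were called higher, beside 12.3% of all genes, and none lower (median 0.29). The medians of the adaptors and of dynein and dynactin turned to -0.068 and -0.27 under spike-in scaling, where none of either list was called higher, and were 0.24 and 0.071 in that scaling without siControl array 1, with 3 and 2 called higher. The largest rises were those of the dynein light chains DYNLRB1 at 1.56 and DYNLRB2 at 1.30, followed by the dynactin subunit DCTN1 at 1.00. As nerve cells are rich in KIF5C and KIF1A, 6 neuronal markers were examined too, of which RBFOX3 and NEFM were not tested. MAP2 was called lower (-1.27), as were 14.2% of all genes, and NEFL, SNAP25 and SYT1 were not called. The mean of the 4 measured markers was 6.95 to 7.28 on the siGATA2 arrays and 7.41 to 7.55 on the siControl arrays. Of the markers of basal, fibroblast, endothelial and leukocyte cells, 11 were tested. PTPRC was called higher (0.87) and VWF lower (-0.96), beside 12.3% and 14.2% of all genes. The part of these markers in the changes of the kinesins was not tested.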

How the data were processed

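The study's LNCaP arrays were grouped by the siRNA and replicate in the sample labels. For every spot the authors deposited an intensity from Agilent Feature Extraction 11.0.1.1, of which the background-corrected processed signal on a linear scale was used, and a table of log2 values with the same median on every array, which was used as an alternative. According to the methods these signals were quantile normalized in GeneSpring, and the array design named there is not the one in the files. The files state build hg19. The RefSeq table and promoters are of assembly GRCh38.p14 and were used for names and sequences only.

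Outlier and control spots were left out, log2 processed signals were averaged per probe, and the 8 arrays were quantile-normalized with limma 3.58.1 in R 4.3.3. Of 42405 probes, 26364 were given a gene symbol through their RefSeq accession, and others kept the accession or locus name in the files. Probes with neither and probes with a log2 mean under 3 were removed (35514 left), and each gene was read from its brightest probe. The groups were compared with lmFit and eBayes and Benjamini-Hochberg adjustment at 0.05, where the methods used a t-test.

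The kinesin classes, the gene lists, the tests and the rule for named genes were chosen with earlier results of these data known. The rule names every KIF gene, GATA2 and, from each other list, the 3 called genes with the largest fall and the 3 with the largest rise, of which 1 gene is not reported here. Uncalled or lower-ranked genes named beside a small count, among them MAPRE1, KLC4, KIFC2, KIFC3, STARD9 and the neuronal markers, were named after their values were seen. Alternatives were other scalings (75th percentile, 7 spike-in probes), background correction by normexp (offset 50), the deposited log2 values, other filters on dim probes, the mean over probes, the methods' t-test, an intensity trend, array weights, blocks by replicate number, title letter and slide row, each array left out in turn, fewer siControl arrays, a 2-fold limit and other class memberships. The 8 arrays shared 1 slide. On it siGATA2 arrays 1 to 3 and siControl array 4 lay in row 1, and siGATA2 array 4 and siControl arrays 1 to 3 in row 2. Slide row and group thus largely coincided. Depth is not defined for arrays, and the number of probes above background was used in its stead, while precision is limited by the 4 arrays per group.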

Additional observations from a re-analysis of the deposited data

Results flagged for a closer look

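In 6 of 80 groups of 4 arrays examined (GATA2, each kinesin and the class means in each group), 1 array stood far from the other 3 by Dixon's criterion, and chance alone flags about 1 in 20 groups. On siControl array 1, KIF14 was at 11.27 on the log2 scale against 10.53 to 10.58 on the other siControl arrays, KIF13B at 11.92 against 11.005 to 11.16, and KIF26A at 4.68 against 5.85 to 5.91. On siControl array 3, KIF5A was at 3.34 against 4.14 to 4.30. These 2 arrays also had the fewest probes well above background, 28521 and 24261. On siGATA2 array 2, KIF11 was at 9.16 against 9.26 to 9.28, and KIF5C was at 13.16 against 12.90 to 12.94. The array that stood apart did not bridge the groups in KIF11, KIF14, KIF13B or KIF5C. Whether anything about the arrays accounts for these values was not tested.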

How the results depend on the processing

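The 10 mitotic kinesins were all called lower in every alternative. Their median of -1.92 was -2.54 under spike-in scaling, -2.19 under spike-in scaling with siControl array 1 left out (chosen after seeing the data) and -1.75 after normexp background correction. With KIF2A counted as mitotic, 10 members were still called lower, KIF2A itself was not called, and the median was -1.88. The 4086 lower and 3558 higher genes became 1899 and 141 under spike-in scaling and 2056 and 1304 with a 2-fold limit, and the higher genes numbered 5794 with array weights, 5338 with the title letter as a random block, 2184 with slide row as a block, 7198 with a block for letters A and B and 1827 under spike-in scaling without siControl array 1. Transport kinesins called higher, 6 in number, came to 1 under both spike-in scalings and with the 2-fold limit. They came to 7 with scaling to the 75th percentile and with letters A and B as a block. With slide row as a block they came to 4, and KIF1B (adjusted p = 0.055) and KIF1C (adjusted p = 0.0842) were not called. Those called lower came to 1 with the mean over probes, array weights and spike-in scaling without siControl array 1, 2 with the title letter as a random block and 3 with letters A and B as a block, and ranged from 0 to 1 over the fits leaving out 1 array. The transport median of 0.52 reversed to -0.16 under spike-in scaling and was 0.30 in that scaling without siControl array 1, 0.34 with normexp, 0.44 with the mean over probes, array weights, or KIF21A and KIF21B counted as transport, 0.39 with siControl arrays 2 and 4 only, and from 0.40 to 0.51 over the fits leaving out 1 array. The gap between the class medians, -2.44, was -2.09 with normexp. Spike-in scaling moved the medians of other kinesins and all genes to -0.41 and -0.43. The 1 other kinesin called higher became 2 with scaling to the 75th percentile, the mean over probes and letters A and B as a block, 0 under both spike-in scalings, normexp, the methods' t-test, slide row as a block and siControl arrays 2 and 4 only, and 0 to 1 over the fits leaving out 1 array. KIF1C reversed to -0.36, KIF1B to -0.16 and KIF5B to -0.034 under spike-in scaling, and KIF1B to -0.21 with the mean over probes. Replicate numbers did not pair the arrays (correlations of deviations 0.54, -0.31, 0.17 and 0.22). With a replicate block, 3708 genes were lower and 3376 higher, 10 mitotic kinesins were lower, 5 transport kinesins were higher and 0 other kinesins were higher. Over all kinesins and alternatives, 31 values lost a call, 16 gained one and 4 reversed, 43 changed sign with no call on either side, and 769 kept direction and call. The causes were not tested. Dim probes such as those of KIF5A and KIF7 limit what can be said of these genes.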
